A study of Mus musculus with 14 samples.

Results

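The genes described here encode the 5 measured BCL2 proteins that oppose apoptosis (Bcl2l1, Bcl2a1b, Mcl1, Bcl2 and Bcl2l2), the caspase-8 inhibitor Cflar and the 3 PIM kinases (Pim1, Pim2 and Pim3). They were chosen by name, with earlier results of these data known. They were found by matching the Ensembl IDs of the count tables to mouse gene symbols: 9 genes of 39179 IDs, all 9 of which passed the filter on low counts. RNA was sequenced from splenic follicular B cells, the mature subset that recirculates through lymphoid follicles, isolated from C57BL/6 mice with a bead kit and grown with 50 ng/ml of BAFF, the TNF family cytokine that keeps mature B cells alive. The groups were relb-/-crel-/- (dbko) at 6h and 0h, crel-/- (cko) at 6h and 0h, and wild type (wt) at 0h, 6h and 27h, with 2 libraries each, 14 in all. Every group carries the BAFF label, and no culture without BAFF was analysed here, so an effect of BAFF and one of the hours in culture cannot be told apart. The labels give neither the animals' age, nor the parts of Rel and Relb that the knockouts remove, nor whether replicate libraries are of different mice. The p-values thus reflect the spread among libraries, which may be technical.

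Cells commit to intrinsic apoptosis when the effectors BAX and BAK open the outer mitochondrial membrane. The anti-apoptotic BCL2 proteins prevent this by holding the effectors and the BH3-only proteins that trigger them, and cellular FLIP, the product of Cflar, acts on the other arm, where death receptors activate caspase-8. PIM kinases are serine/threonine kinases with no regulatory domain, so their activity follows the amount of protein made, and they support growth and survival through targets such as BAD and the regulators of cap-dependent translation. Mature B cells depend on BAFF for survival, and Bcl2l1 and Bcl2a1 are known targets of NF-kB, the family to which c-Rel (from Rel) and RelB (from Relb) belong.

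Gene counts summed to 10497802 to 11888765 per library. Levels are CPM, counts scaled by library size. Rel stood at 40.0 to 61.4 CPM in dbko and 52.4 to 111 CPM in cko, against 621 to 683 CPM in wt at 0h and 6h. Relb was lower in dbko but not absent, at 53.0 to 88.4 CPM, against 115 to 164 CPM in wt at the same times. B cell markers summed to 5840 to 10300 CPM in every library. Fcer2a marks follicular B cells, and Cr2 follicular and marginal zone B cells. At 6h Fcer2a stood at 167 and 168 CPM in dbko, 296 and 277 CPM in cko and 552 and 515 CPM in wt. At 0h it stood at 695 and 1088 CPM in dbko, 1131 and 1097 CPM in cko and 1192 and 1251 CPM in wt. At 6h Cr2 stood at 121 and 144 CPM in dbko, 237 and 194 CPM in cko and 247 and 237 CPM in wt. At 0h it stood at 157 and 574 CPM in dbko, 920.5 and 998.6 CPM in cko and 745 and 752 CPM in wt. At 6h the 6 marginal zone and B-1 markers summed to 466 and 706 CPM in dbko, against 340 and 353 CPM in wt. At 0h they summed to 211 and 306 CPM in dbko, against 379 and 394 CPM in wt. The dbko libraries stood apart in other cell types. Their 8 erythroid markers other than Tfrc summed at 0h to 708 and 412 CPM, against 9.80 and 9.97 CPM in wt, and at 6h to 91.5 and 53.4 CPM, against 1.46 and 0.934 CPM in wt. The 9 macrophage and monocyte markers summed to 294 to 468 CPM in dbko, against 114 to 208 CPM in wt at the same times (269 and 275 CPM in wt at 27h). In cko they summed to 112 and 113 CPM at 0h, against 204 and 208 CPM in wt. At 6h cko held 125 and 134 CPM, against 124 and 114 CPM in wt. In dbko at 0h Mpeg1 stood at 163 and 173 CPM, against 79.7 and 78.4 CPM in wt, and Lyz2 and Adgre1 were higher too. There Csf1r (43.3 and 14.1 CPM, against 32.5 and 36.8 CPM in wt), C1qb, C1qc, Cd68 and Cd14 overlapped with wt, and C1qa was not higher. The 4 dendritic cell markers summed at 0h to 66.7 and 63.3 CPM in dbko and 33.5 and 33.2 CPM in cko, against 29.5 and 29.5 CPM in wt. At 6h they summed to 32.7 and 24.5 CPM in dbko and 39.0 and 40.5 CPM in cko, against 68.5 and 67.3 CPM in wt. Of the wt sum at 6h, Zbtb46 made up 51.6 and 50.7 CPM. Of the 8 T cell markers 4 stayed under 1 CPM in every library, Cd3e among them. Of the 4 others 1 was called higher in dbko than in wt at each time: Cd8a stood at 14.6 and 20.6 CPM in dbko at 0h, against 4.27 and 3.20 CPM in wt, and Cd28 at 16.8 and 21.3 CPM in dbko at 6h, against 3.66 and 3.14 CPM in wt. Replicates of dbko differed from each other more than those of other groups, with a chi-square per gene of 36.91 at 6h and 31.86 at 0h, against 22.49 in cko at 6h and 2.91 to 4.85 in the other 4 groups (counting noise alone gives about 1). Whether B cell subsets, these other cells or replicate 1 of dbko contribute to a difference between a knockout and wt was not tested beyond leaving libraries out. In bulk RNA, fewer cells of a type and less RNA per cell cannot be told apart.

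Bcl2l1 encodes Bcl-xL, which sits on the outer mitochondrial membrane. The gene (ENSMUSG00000007659; GRCm38 chromosome 2, 152780668 to 152831728, minus strand) was high in wt libraries cultured with BAFF and low in every other library. At 6h it stood at 14.2 and 10.9 CPM in dbko and 5.28 and 7.36 CPM in cko, against 62.8 and 72.3 CPM in wt. At 0h it stood at 8.55 and 8.14 CPM in dbko, 8.15 and 8.25 CPM in cko, and 10.5 and 9.68 CPM in wt, and at 27h in wt at 38.0 and 38.2 CPM. The 2 wt libraries at 6h were the highest of the 14 and those at 27h the next, with no overlap with any other group, while at 0h only dbko and cko overlapped. In wt the log2 fold change at 6h was 2.74 ± 0.18 (SE; adjusted p = 2.93e-07) and at 27h 1.91 ± 0.17 (adjusted p = 3.43e-06), both against 0h, and the 27h level lay below the 6h level, at -0.83 ± 0.16 (adjusted p = 0.002).

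In cko no rise of Bcl2l1 passed the test, and in dbko the rise was small. In cko the 6h change was -0.37 ± 0.19 (95% interval -0.79 to 0.04; adjusted p = 0.136), and it reached adjusted p = 0.0364 at -0.64 without cko 6h replicate 2. In dbko it was 0.59 ± 0.18 (adjusted p = 0.0196). Leaving out dbko 6h replicate 1 (adjusted p = 0.13), dbko 0h replicate 1 (0.0558) or dbko 0h replicate 2 (0.0735), leaving out both dbko libraries of replicate 1 (0.16), or fitting dbko alone (0.244) removed that call. The responses themselves differed. The response of dbko minus that of wt was -2.15 ± 0.25 (adjusted p = 0.000462) and that of cko minus that of wt -3.11 ± 0.26 (adjusted p = 0.00033), and both calls held with any 1 library left out. At 6h Bcl2l1 was lower than in wt in dbko, at -2.42 ± 0.17 (adjusted p = 3.97e-06), and in cko, at -3.41 ± 0.18 (adjusted p = 4.28e-07). Before culture neither difference passed, with 95% intervals of -0.68 to 0.13 in dbko and -0.70 to 0.10 in cko.

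Set against each other at 6h, dbko was above cko for Bcl2l1 by 0.99 ± 0.18 (adjusted p = 0.0047). Every dbko library lay above both cko libraries, but leaving out cko 6h replicate 1 (adjusted p = 0.0502) or fitting the compared groups alone (0.164) removed the call. The difference of the 6h responses of dbko and cko, 0.96 ± 0.26, did not pass (adjusted p = 0.13), and passed at 1.14 without dbko 6h replicate 2 (adjusted p = 0.0237).

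**Figure D1:**
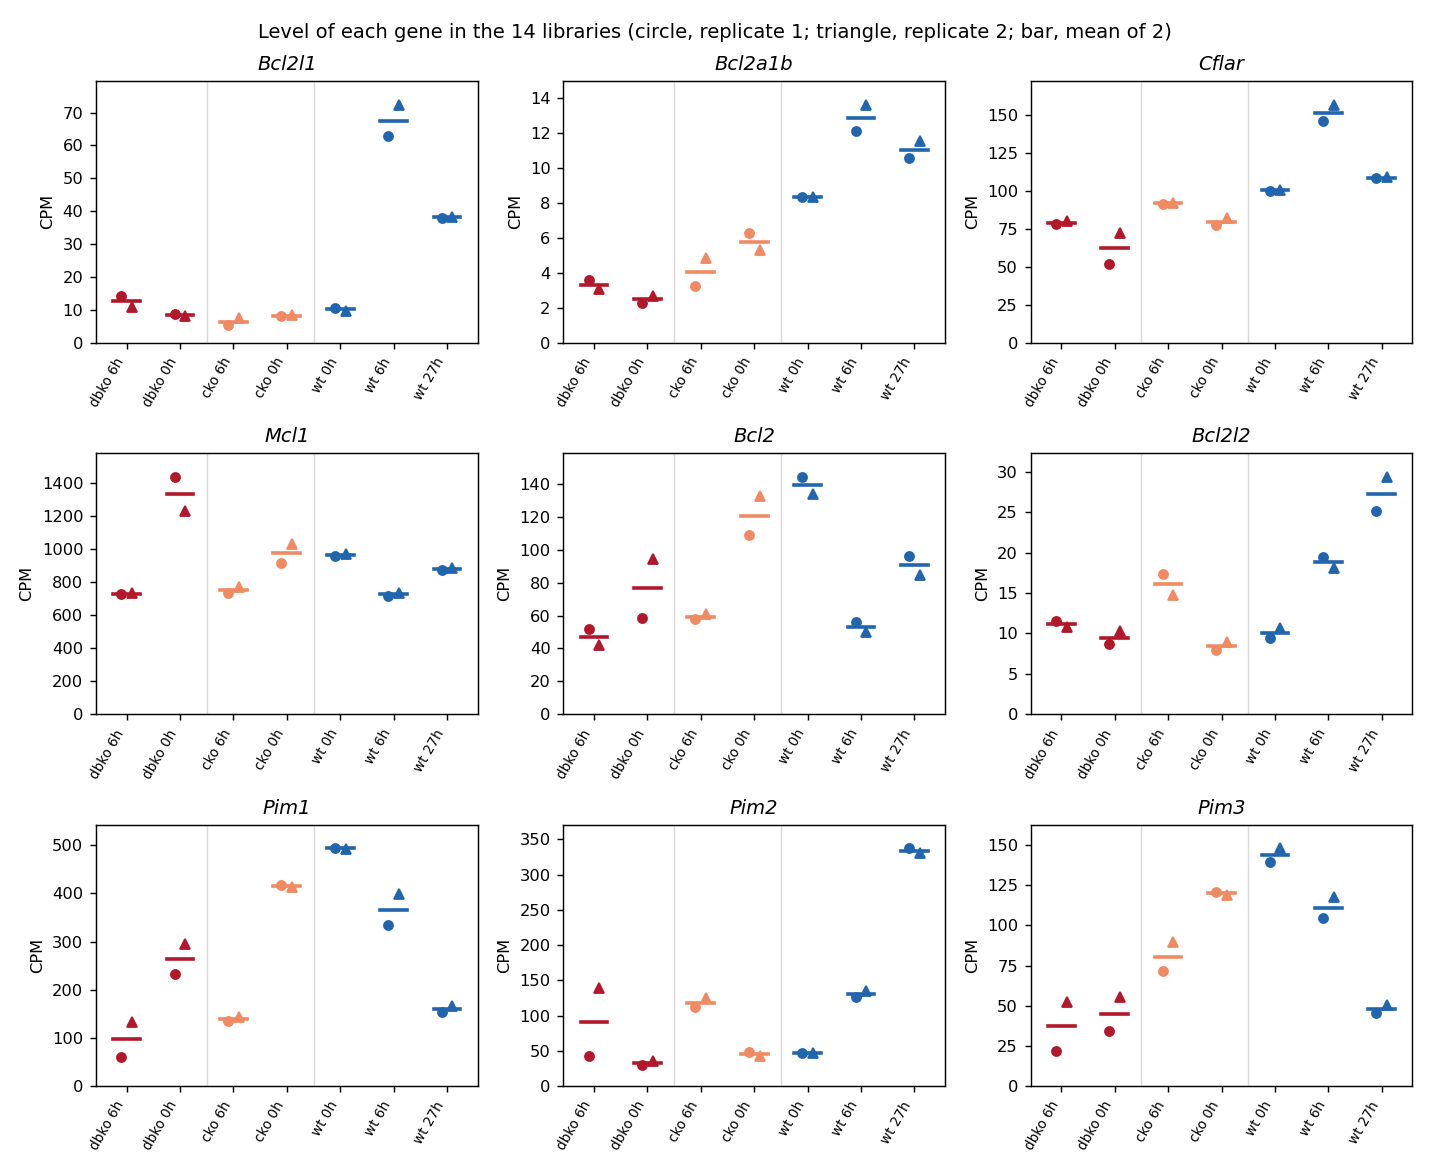
Level of each of the 9 genes (CPM, linear axes from 0) in the 14 libraries, by group, with a circle for replicate 1, a triangle for replicate 2 and a bar at their mean. In wt Bcl2l1 reaches 62.8 and 72.3 CPM by 6h and stands at 38.0 and 38.2 CPM by 27h, with at most 14.2 CPM elsewhere, Pim2 is highest in wt at 27h, and the dbko 6h replicates lie far apart for all 3 PIM genes.

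Bcl2a1b is 1 of the mouse copies of the gene for A1, a short-lived BCL2 protein prominent in lymphocytes and myeloid cells. The copies are nearly identical, and reads that align to more than 1 place are outside these counts, so the values (24 to 160 counts per library) are those of the part that aligned to this copy alone. Gm29094 overlaps it on the same strand (ENSMUSG00000089929; GRCm38 chromosome 9, 89199209 to 89207827, plus strand). At 6h it stood at 3.56 and 3.05 CPM in dbko and 3.25 and 4.82 CPM in cko, against 12.1 and 13.6 CPM in wt. At 0h it stood at 2.25 and 2.68 CPM in dbko and 6.24 and 5.27 CPM in cko, against 8.34 and 8.33 CPM in wt, and at 27h in wt at 10.5 and 11.5 CPM. Every knockout library lay below every wt library, at both times, and at 0h the 3 genotypes did not overlap.

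Against wt at 6h Bcl2a1b was lower in dbko, at -1.96 ± 0.23 (adjusted p = 0.000133), and in cko, at -1.66 ± 0.23 (adjusted p = 0.00201), and at 0h it was lower in dbko, at -1.75 ± 0.25 (adjusted p = 0.000621). These 3 calls held in every alternative run, the one with the counts of Bcl2a1c, the only other copy matched, added included. In cko at 0h the difference from wt was -0.53 ± 0.23 (adjusted p = 0.328; 0.0404 with the compared groups alone). Its difference between dbko and cko at 0h, -1.22 ± 0.25 (adjusted p = 0.0102), ended with adjusted p = 0.0521 to 0.099 without cko 0h replicate 1 or 2 or dbko 0h replicate 1, and at 0.0887 when the compared groups were fitted alone. In wt the 6h rise was 0.62 ± 0.22 (adjusted p = 0.0335), a call that ended without any 1 of the 4 wt libraries at 0h and 6h (adjusted p = 0.0754 to 0.171), with no filter on low counts (0.0731) and by DESeq2 (0.0775). At 27h it was 0.40 above 0h (adjusted p = 0.15; 0.0156 with the compared groups alone). In culture with BAFF it did not change past the threshold in dbko (0.42) or in cko (-0.51, adjusted p = 0.106), except in cko without cko 6h replicate 2 (-0.82, adjusted p = 0.034). Macrophage markers, whose cells also express A1, were higher in dbko than in wt at 6h for 9 of 9 genes, where 15.2% of all genes were called higher. At 0h these markers summed to 353 and 294 CPM in dbko and 112 and 113 CPM in cko, against 204 and 208 CPM in wt. Their part in the Bcl2a1b differences was not tested.

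Cflar (ENSMUSG00000026031; GRCm38 chromosome 1, 58711508 to 58758884, plus strand) followed the same order of genotypes with smaller differences. At 6h it stood at 77.8 and 79.9 CPM in dbko and 91.4 and 91.8 CPM in cko, against 146 and 156 CPM in wt. At 0h it stood at 51.6 and 72.3 CPM in dbko and 77.1 and 81.8 CPM in cko, against 99.8 and 101 CPM in wt, and at 27h in wt it was back at 108 and 109 CPM. No knockout library reached the lowest wt library of its time. In wt Cflar rose at 6h by 0.59 ± 0.13 (adjusted p = 0.00249), and the 27h level did not differ from 0h beyond its error (0.11, 95% interval -0.17 to 0.39). The fall between 6h and 27h, -0.48 ± 0.13 (adjusted p = 0.0128), ended with adjusted p = 0.0698 to 0.0915 without either wt library at 27h or wt 6h replicate 2.

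At 6h Cflar was lower than in wt, at -0.94 ± 0.13 in dbko (adjusted p = 0.000377) and at -0.72 ± 0.13 in cko (adjusted p = 0.00933). The dbko call held in every alternative, and the cko call was lost when wt 6h replicate 1 (adjusted p = 0.057), wt 6h replicate 2 (0.12) or cko 6h replicate 2 (0.0787) was left out. At 0h Cflar was lower in dbko, at -0.69 ± 0.13 (adjusted p = 0.00471), which held with any 1 library left out but not when dbko and wt at 0h were fitted alone (adjusted p = 0.12). In cko at 0h it was -0.33 ± 0.13 (adjusted p = 0.268; 0.00272 with the compared groups alone). The 6h rise did not pass in dbko (0.35, adjusted p = 0.0508; 0.0376 with the replicate block, and 0.61 with adjusted p = 0.00102 without dbko 0h replicate 2) or in cko (0.20, adjusted p = 0.23), and neither response differed from that of wt past the threshold, at -0.24 ± 0.18 in dbko (adjusted p = 0.0402 without dbko 0h replicate 1 and 0.0359 without both dbko libraries of replicate 1) and -0.39 ± 0.18 in cko (0.0478 with the compared groups alone).

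Since Bcl2l1, Bcl2a1b and Cflar were each higher in wt at 6h and lower in both knockouts at 6h, a window of 300 bases around a RefSeq start of each is shown (GRCm38.p6; 250 bases before the start to 50 after it), with that of Pim2, which passed no test between genotypes in the fit over all groups, beside them. Capitals mark matches on either strand to a loose form of the kappa B site to which NF-kB subunits bind: 3 Gs, any 5 bases and 2 Cs. Overlapping matches are joined. The Bcl2l1 window is chr2:152830668-152830967 (minus strand), that of Bcl2a1b chr9:89199023-89199322 (plus), that of Cflar chr1:58711241-58711540 (plus) and that of Pim2 chrX:7878056-7878355 (plus).
Bcl2l1: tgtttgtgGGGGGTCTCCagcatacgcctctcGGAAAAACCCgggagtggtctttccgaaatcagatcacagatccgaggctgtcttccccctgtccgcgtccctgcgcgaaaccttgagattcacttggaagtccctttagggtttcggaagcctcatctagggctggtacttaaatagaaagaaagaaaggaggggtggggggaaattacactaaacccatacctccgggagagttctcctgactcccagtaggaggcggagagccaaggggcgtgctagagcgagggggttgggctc
Bcl2a1b: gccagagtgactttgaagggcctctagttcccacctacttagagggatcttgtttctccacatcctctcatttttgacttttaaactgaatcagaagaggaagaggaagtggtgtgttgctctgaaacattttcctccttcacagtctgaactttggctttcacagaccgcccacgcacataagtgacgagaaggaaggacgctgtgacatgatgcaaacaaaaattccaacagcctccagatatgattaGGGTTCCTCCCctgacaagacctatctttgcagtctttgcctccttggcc
Cflar: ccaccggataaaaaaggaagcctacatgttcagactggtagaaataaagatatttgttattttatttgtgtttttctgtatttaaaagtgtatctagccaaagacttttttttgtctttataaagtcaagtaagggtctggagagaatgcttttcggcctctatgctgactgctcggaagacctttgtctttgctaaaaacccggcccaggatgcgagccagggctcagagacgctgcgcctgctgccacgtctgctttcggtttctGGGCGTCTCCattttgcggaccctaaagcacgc
Pim2: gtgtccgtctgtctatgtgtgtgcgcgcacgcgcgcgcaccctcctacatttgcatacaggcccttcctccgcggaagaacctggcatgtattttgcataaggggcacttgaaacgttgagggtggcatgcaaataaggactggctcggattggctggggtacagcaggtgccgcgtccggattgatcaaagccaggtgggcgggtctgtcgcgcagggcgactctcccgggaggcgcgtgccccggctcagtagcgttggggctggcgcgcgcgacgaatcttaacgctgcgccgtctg
The Bcl2l1 window held 2 matches, beginning 242 and 218 bases before the start (-242 and -218). Of the 3 RefSeq windows of Bcl2l1 the one with matches is printed, and the other 2, chr2:152828440-152828739 and chr2:152831679-152831978, held none. In Bcl2a1b 2 overlapping matches began just after the start and in Cflar 1 began 18 bases into the transcript, while the Pim2 window held none. The form is common: 8 of the 12 windows of the 9 genes held it, and so did 50.8% of 32851 RefSeq mouse promoter windows. Of the 9 genes only Pim2 had no match in any window. Mcl1 (2 matches) and Bcl2 (1), not called against wt at 6h in either knockout, held it too. So did Pim1 (7 in 1 window, 0 in the other), which was lower in both knockouts at 6h, Bcl2l2 (2) and Pim3 (4). Whether any match is bound was not tested. The STAT form TTCNNNGAA, searched because cytokine signals drive PIM genes through STAT factors, occurred in none of the 12 and in 8.3% of all windows.

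Mcl1 and Bcl2 went the other way in culture, and Bcl2l2 rose. Mcl1 encodes a short-lived protein on which many lymphocytes depend (ENSMUSG00000038612; GRCm38 chromosome 3, 95658788 to 95663176, plus strand). At 6h it stood at 726 and 734 CPM in dbko, 738 and 773 CPM in cko and 718 and 737 CPM in wt. At 0h it stood at 1440 and 1234 CPM in dbko and 917 and 1033 CPM in cko, against 960 and 969 CPM in wt, and at 27h in wt at 874 and 889 CPM. The genotypes thus lay together at 6h, and dbko lay above both others at 0h. Mcl1 fell at 6h in dbko, at -0.87 ± 0.12 (adjusted p = 0.000105), a call that held in every alternative. In cko (-0.37 ± 0.12, adjusted p = 0.0228) leaving out cko 6h replicate 1 (adjusted p = 0.0819) or cko 0h replicate 2 (0.173) removed the call. In wt (-0.41 ± 0.12, adjusted p = 0.0123) it ended without any 1 of the 4 libraries (adjusted p = 0.0574 to 0.0806).

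At 0h Mcl1 was higher in dbko than in wt by 0.47 ± 0.12 (adjusted p = 0.0208) and than in cko by 0.46 ± 0.12 (adjusted p = 0.0294). Against wt the call ended with adjusted p = 0.134 to 0.151 without dbko 0h replicate 1 or either wt 0h library, and against cko with 0.0932 to 0.281 without dbko 0h replicate 1 or either cko 0h library. Fitted with the compared groups alone (adjusted p = 0.162 and 0.22) or without both dbko libraries of replicate 1 (0.0506 and 0.112) both calls ended, and that against cko ended with no filter on low counts (0.0506). It stood beside the erythroid markers, of which 9 of 9 tested were higher in dbko than in wt at 0h (7.1% of all genes were). Their part in the Mcl1 difference was not tested. The 6h response of dbko minus that of wt was -0.47 ± 0.16 for Mcl1 (adjusted p = 0.0794), which passed by DESeq2 (0.00962) and without dbko 0h replicate 2 (0.0218). At 6h the genotypes differed from wt by 0.01 in dbko (95% interval -0.25 to 0.26) and 0.06 in cko (-0.20 to 0.31).

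Bcl2, the founding member of the family (ENSMUSG00000057329; GRCm38 chromosome 1, 106538178 to 106714274, minus strand), was lower at 6h than at 0h in all 3 genotypes. In dbko it stood at 51.8 and 42.0 CPM at 6h, against 58.5 and 94.5 CPM at 0h, and in cko at 58.0 and 60.6 CPM at 6h, against 109 and 132 CPM at 0h. In wt the 0h libraries held 144 and 134 CPM, the 6h libraries 55.9 and 50.3 CPM and the 27h libraries 96.1 and 84.7 CPM. The times did not overlap within a genotype. The fall was -1.39 ± 0.19 in wt (adjusted p = 0.000117) and -1.02 ± 0.19 in cko (adjusted p = 0.00105). It was -0.71 ± 0.19 in dbko (adjusted p = 0.0113), where it ended without dbko 0h replicate 2 (-0.32, adjusted p = 0.142), without dbko 6h replicate 2 (-0.56, adjusted p = 0.0728) and with dbko fitted alone (adjusted p = 0.142).

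From the 6h to the 27h libraries of wt, Bcl2 rose by 0.77 ± 0.19 (adjusted p = 0.00902; with wt 27h replicate 1 left out 0.0726, with wt 6h replicate 2 left out 0.0762), and its 27h change against 0h was -0.62 ± 0.19 (adjusted p = 0.016; with wt 0h replicate 1 left out 0.0868, with wt 27h replicate 2 left out 0.113). Against wt Bcl2 was lower in dbko at 0h, at -0.86 ± 0.19 (adjusted p = 0.0117), which ended without dbko 0h replicate 1 (-0.56, adjusted p = 0.0708), either wt 0h library (adjusted p = 0.0613 and 0.1), or when fitted with wt at 0h alone (0.132). Against cko it was lower, at -0.66 ± 0.19 (adjusted p = 0.0498), which ended without dbko 0h replicate 1 (-0.38) or either cko 0h library (adjusted p = 0.107 to 0.32 over the 3), without both dbko libraries of replicate 1 (0.0881) or with the compared groups alone (0.226). At 6h its differences from wt were -0.18 in dbko (95% interval -0.60 to 0.24) and 0.16 in cko (-0.26 to 0.58), and neither response differed from that of wt past the threshold, though dbko did without dbko 0h replicate 2 (1.07, adjusted p = 0.00523) and with no filter on low counts (0.0182).

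Bcl2l2 encodes Bcl-w (ENSMUSG00000089682; GRCm38 chromosome 14, 54883377 to 54888234, plus strand), and the overlapping gene Gm20521 had no counts. It stood at 11.5 and 10.8 CPM in dbko at 6h, against 8.64 and 10.2 CPM at 0h, and at 17.4 and 14.7 CPM in cko at 6h, against 7.94 and 8.95 CPM at 0h. In wt the 0h libraries held 9.48 and 10.6 CPM, the 6h libraries 19.5 and 18.1 CPM and the 27h libraries 25.1 and 29.4 CPM. The 3 wt times did not overlap, and at 6h dbko lay below cko and cko below wt. The 6h rise was 0.93 ± 0.17 in cko (adjusted p = 0.000915) and 0.90 ± 0.17 in wt (adjusted p = 0.000883), against 0.24 in dbko (95% interval -0.13 to 0.61; adjusted p = 0.29), and the wt change at 27h was 1.44 ± 0.17 (adjusted p = 2.32e-05).

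The further rise of Bcl2l2 between 6h and 27h, 0.54 ± 0.16 (adjusted p = 0.021), ended with adjusted p = 0.0776 to 0.167 without wt 6h replicate 1 or 2 or wt 27h replicate 2, and at 0.0664 with no filter on low counts. At 6h Bcl2l2 was lower in dbko than in wt, at -0.75 ± 0.16 (adjusted p = 0.00576; 0.0515 without wt 6h replicate 1 and 0.0601 with the compared groups alone) and lay -0.53 from cko (adjusted p = 0.0524; 0.0354 without both dbko libraries of replicate 1). The difference of the dbko and wt responses, -0.66 ± 0.24, did not pass (adjusted p = 0.0854), and passed without both dbko libraries of replicate 1 (-0.84, adjusted p = 0.0416).

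Per kb of exon, Mcl1 made up most of the anti-apoptotic BCL2 RNA in every library. Its share of the summed CPM per kb of the 5 BCL2 genes was 93.1 and 94.2% in dbko, 93.4 and 92.8% in cko and 84.4 and 83.7% in wt at 6h, and 90.2 to 97.0% over the 0h libraries. Bcl2l1 made up 1.36 and 1.05% in dbko and 0.497 and 0.658% in cko, against 5.50 and 6.12% in wt, at 6h, and 0.429 to 0.737% at 0h. In wt Bcl2 was the second of the 5 at 0h, with 5.06 and 4.67%. At 6h Bcl2a1b (5.94 and 6.46%) and Bcl2l1 both stood above it (2.45 and 2.13%). At 27h Bcl2a1b had 4.40 and 4.72%, Bcl2 3.58 and 3.10% and Bcl2l1 2.83 and 2.79%. The order of these 3 rests on the length used. With the longest transcript in place of the union of exons, Bcl2l1 came to 9.33 and 10.4% in wt at 6h and passed Bcl2a1b (5.64 and 6.11%), and at 27h its 4.87 and 4.82% stood above Bcl2a1b (4.25 and 4.56%) and Bcl2 (4.40 and 3.82%). Shares are of RNA, and the Bcl2a1b share counts only the reads specific to this copy.

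**Figure D2:**
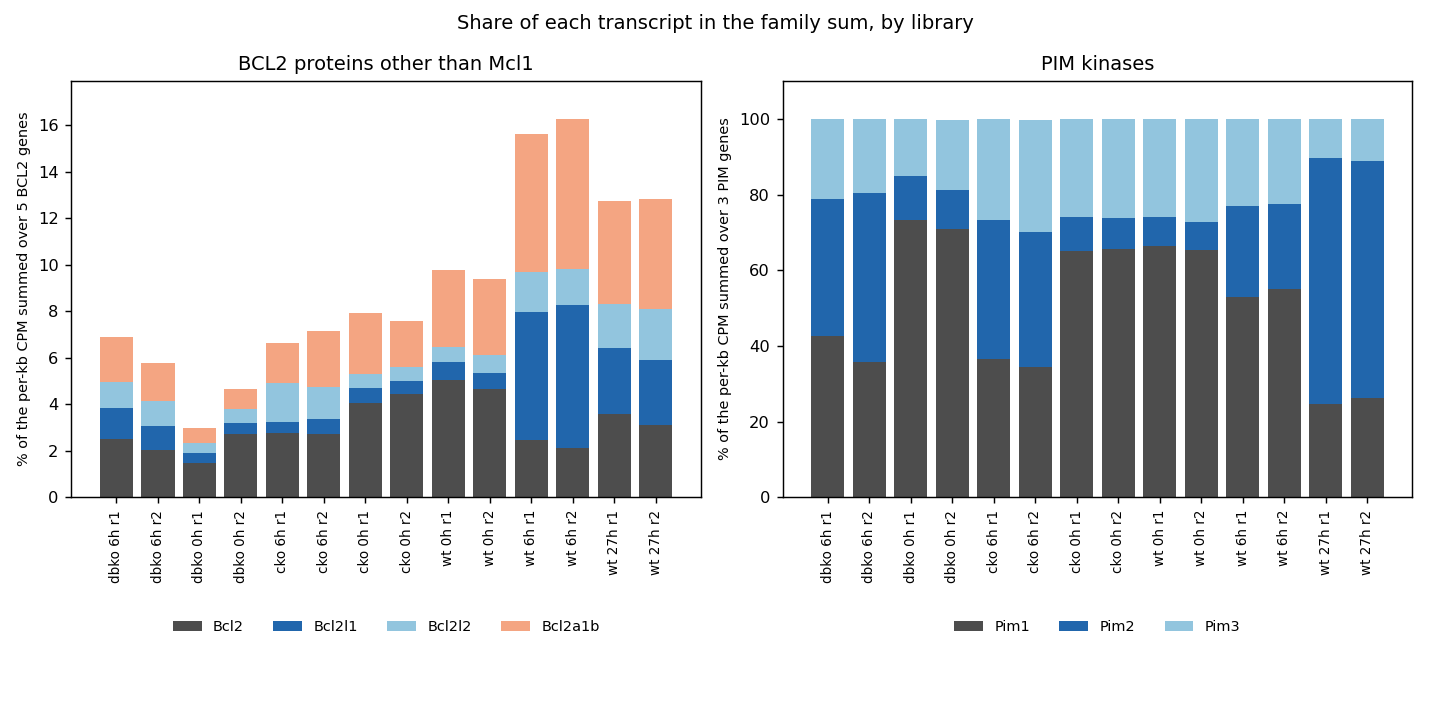
Stacked bars give, for each library, the share (%) of the CPM per kb summed over the 5 BCL2 genes that is taken by the 4 genes other than Mcl1 (left; the remainder is Mcl1), and the shares of the 3 PIM genes in their own sum (right). The Bcl2l1 segment is 5.50 and 6.12% in wt at 6h against 1.36% or less in the knockouts, and Pim2 takes 65.1 and 62.9% of the PIM sum in wt at 27h.

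The 3 PIM genes did not move together. Pim1 (ENSMUSG00000024014; GRCm38 chromosome 17, 29490753 to 29496112, plus strand; its antisense partner Gm26885 had at most 10 counts) was highest at 0h and fell in culture. At 6h it stood at 60.8 and 134 CPM in dbko and 135 and 144 CPM in cko, against 334 and 399 CPM in wt. At 0h it stood at 232 and 294 CPM in dbko and 418 and 413 CPM in cko, against 493 and 493 CPM in wt, and at 27h in wt at 154 and 165 CPM. At 6h every knockout library lay below the lower wt library, the 2 dbko libraries stood more than 2-fold apart, and at both times the 3 genotypes kept the order dbko, cko, wt without overlap. The 6h fall was -1.44 ± 0.27 in dbko (adjusted p = 0.00161) and -1.58 ± 0.27 in cko (adjusted p = 0.000824). In dbko it was -2.12 without dbko 6h replicate 2 and -0.98 without dbko 6h replicate 1, and the call ended at 0.0831 with dbko fitted alone. In wt the 6h change was -0.43 ± 0.26 (adjusted p = 0.209; 0.000101 when wt at 0h and 6h were fitted alone and 0.0129 with no filter on low counts), and the change at 27h was -1.63 ± 0.27 (adjusted p = 0.000555).

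Against wt at 6h Pim1 was lower in dbko, at -1.91 ± 0.28 (adjusted p = 0.000724), and in cko, at -1.40 ± 0.27 (adjusted p = 0.0173), which ended without any 1 of the 4 libraries (adjusted p = 0.0708 to 0.16). The dbko call held with any 1 library left out, at -2.59 without dbko 6h replicate 2 and -1.45 without dbko 6h replicate 1, but ended at 0.0515 with the compared groups alone. At 0h it was lower in dbko, at -0.91 ± 0.27 (adjusted p = 0.0497), which ended with adjusted p = 0.187 to 0.286 without dbko 0h replicate 1 or either wt 0h library, and at 0.0501 with the compared groups alone. The 6h responses of dbko and cko lay -1.01 ± 0.38 (adjusted p = 0.101) and -1.15 ± 0.38 (adjusted p = 0.158) from that of wt. Neither passed in the fit over all groups, while DESeq2 called both (adjusted p = 0.0256 in dbko and 0.0158 in cko), the replicate block brought the dbko difference to 0.05, and it passed without dbko 6h replicate 2 (-1.69, adjusted p = 0.000193) and without both dbko libraries of replicate 1 (-0.72, adjusted p = 0.00978). With no filter on low counts both passed (adjusted p = 1.2e-05 in dbko and 1.17e-06 in cko), and with the compared groups alone that of cko did (0.00048). The fall of Pim1 in wt between 6h and 27h, -1.20 ± 0.27 (adjusted p = 0.00606), ended at 0.053 without wt 27h replicate 1.

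Pim2 (ENSMUSG00000031155; GRCm38 chromosome X, 7878262 to 7883432, plus strand) rose with time in culture in all 3 genotypes. In dbko it stood at 42.8 and 139 CPM at 6h, against 30.1 and 36.3 CPM at 0h, and in cko at 112 and 124 CPM at 6h, against 48.2 and 42.5 CPM at 0h. In wt the 0h libraries held 47.2 and 46.9 CPM, the 6h libraries 126 and 134 CPM and the 27h libraries 337 and 331 CPM. Within each genotype the times did not overlap, but the 2 dbko libraries at 6h were more than 3-fold apart, replicate 1 near the 0h levels and replicate 2 above every wt library of that time. The 6h rises were 1.45 ± 0.40 in dbko (adjusted p = 0.0171), 1.38 ± 0.40 in cko (adjusted p = 0.0189) and 1.47 ± 0.40 in wt (adjusted p = 0.0129).

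None of these Pim2 calls held with every library left out in turn, but only in dbko did the size of the rise move widely. With libraries left out it ran from 0.365 to 2.06 in dbko, against 1.30 to 1.48 in cko and 1.42 to 1.51 in wt. In dbko the rise was 0.36 without dbko 6h replicate 2 (adjusted p = 0.0549) and 1.31 without dbko 0h replicate 1 (adjusted p = 0.068), and with dbko fitted alone the call ended at 0.179. In cko it ended without any 1 of the 4 libraries (adjusted p = 0.0503 to 0.0942), and in wt without wt 0h replicate 1 or 2 or wt 6h replicate 2 (adjusted p = 0.0531 to 0.067). The rise to 27h in wt, 2.83 ± 0.41 against 0h (adjusted p = 0.00036), held in every alternative, and its further rise between 6h and 27h, 1.36 ± 0.38 (adjusted p = 0.0221), ended without any 1 of the 4 libraries (adjusted p = 0.0737 to 0.115). At 6h Pim2 did not differ from wt past the threshold in dbko (-0.52, 95% interval -1.37 to 0.34) or in cko (-0.13, -0.99 to 0.72). Without dbko 6h replicate 2 the dbko difference was -1.60 (adjusted p = 6.8e-06), and with no filter on low counts it passed at -0.55 (adjusted p = 0.000795). The difference of the dbko and wt responses, -0.01 ± 0.56 (adjusted p = 0.994), was 0.60 without dbko 6h replicate 1 (adjusted p = 0.0386) and -1.10 without dbko 6h replicate 2 (adjusted p = 0.00124), so its direction was set by which of the 2 libraries was used.

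Pim3 (ENSMUSG00000035828; GRCm38 chromosome 15, 88862186 to 88865726, plus strand) was lowest in dbko. At 6h it stood at 21.8 and 52.5 CPM in dbko and 71.5 and 89.7 CPM in cko, against 104 and 117 CPM in wt. At 0h it stood at 34.6 and 55.5 CPM in dbko and 121 and 119 CPM in cko, against 139 and 148 CPM in wt, and at 27h in wt at 45.8 and 50.2 CPM. The 3 genotypes did not overlap at either time, and the wt level at 27h lay within the range of dbko. Against wt it was lower in dbko, at -1.58 ± 0.33 at 6h (adjusted p = 0.0074) and at -1.68 ± 0.33 at 0h (adjusted p = 0.0105). The 6h call held with any 1 library left out, at -2.35 without dbko 6h replicate 2 and -1.08 without dbko 6h replicate 1, but ended at 0.0755 when the compared groups were fitted alone, and the 0h call ended with adjusted p = 0.0555 to 0.0723 without dbko 0h replicate 1 or either wt 0h library.

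Against cko Pim3 in dbko was lower at 0h, at -1.41 ± 0.33 (adjusted p = 0.0276; 0.119 to 0.183 without dbko 0h replicate 1 or either cko 0h library) and lay -1.12 ± 0.33 from it at 6h (adjusted p = 0.0525). The 6h difference passed with the replicate block (-1.16, adjusted p = 0.0119), by DESeq2 (adjusted p = 0.00237), with no filter on low counts (2.93e-13), without dbko 6h replicate 2 (-1.89, adjusted p = 0.000172) and without both dbko libraries of replicate 1 (-0.63, adjusted p = 0.00659). At 6h the Pim3 changes within a genotype did not pass, at -0.28 in dbko, -0.57 in cko and -0.37 in wt, with these exceptions. That of dbko passed without dbko 6h replicate 2 (-1.05, adjusted p = 0.00496). With no filter on low counts and with the compared groups alone those of cko (adjusted p = 0.000115 and 0.00335) and wt (0.0322 and 0.000113) passed. In wt Pim3 was lower at 27h, at -1.58 ± 0.33 against 0h (adjusted p = 0.00302) and -1.21 ± 0.33 against 6h (adjusted p = 0.0183; 0.0563 to 0.109 without any 1 of the 4 libraries).

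Within the PIM family the leading transcript per kb changed with time. At 0h Pim1 made up 73.4 and 70.9% of the PIM sum in dbko, 65.0 and 65.6% in cko and 66.4 and 65.4% in wt. At 6h Pim2 had reached 36.2 and 44.7% in dbko and 36.7 and 35.8% in cko, against 24.0 and 22.3% in wt, where Pim1 still led with 53.0 and 55.2%. At 27h in wt Pim2 led with 65.1 and 62.9% and Pim1 had 24.7 and 26.1%. The Pim2 share of the knockouts at 6h was higher than that of wt beside a lower Pim1, while Pim2 in CPM was above wt in dbko replicate 2 alone. With the longest transcript as length the leading gene of each library was the same, with Pim2 at 68.5 and 66.4% in wt at 27h.

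**Figure D3:**
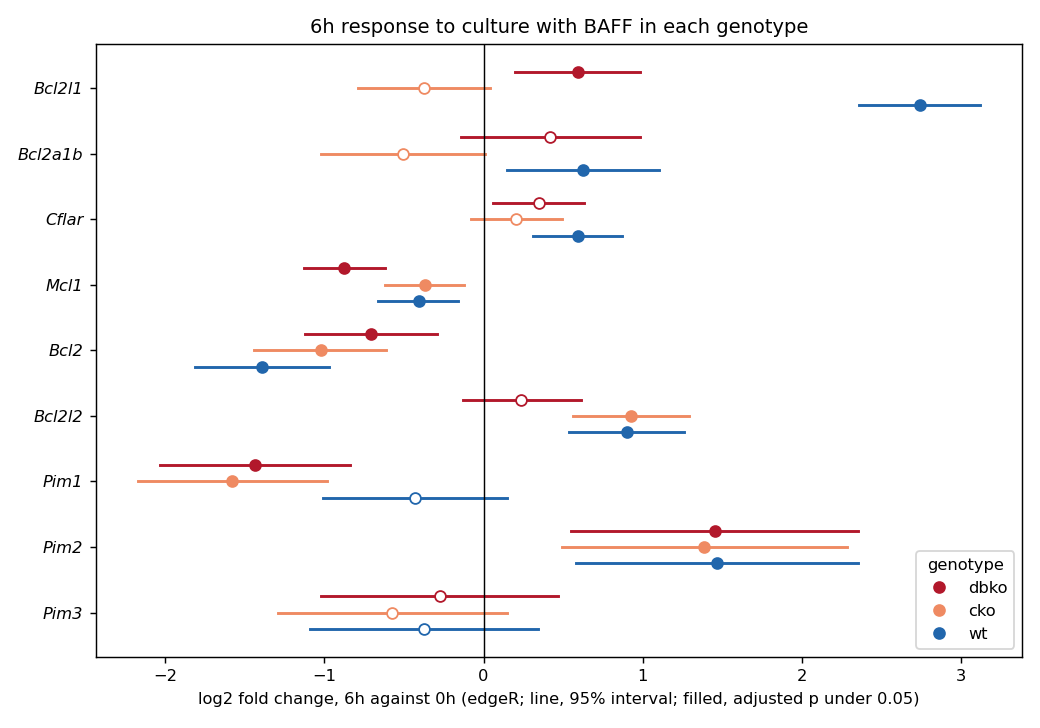
Log2 fold change at 6h against 0h for each gene in dbko, cko and wt (points; lines, 95% intervals of the edgeR fit; filled points, adjusted p under 0.05). The wt interval for Bcl2l1, 2.36 to 3.12, lies apart from those of dbko (0.20 to 0.98) and cko (-0.79 to 0.04), while the Pim2 intervals of the 3 genotypes cover each other.

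Counted over the comparisons, in wt at 6h against 0h 5 of the 9 genes rose (Bcl2l1, Pim2, Bcl2l2, Bcl2a1b and Cflar) and 2 fell (Bcl2 and Mcl1). Of all 12630 tested genes 46.2% were called there, 22.6% higher and 23.5% lower, and the median log2 change was 0.59 over the 9 and 0.00 over all. At 27h against 0h 3 rose (Pim2, Bcl2l1, Bcl2l2) and 3 fell (Pim1, Pim3, Bcl2), where 47.6% of all genes were called, 23% higher and 24.6% lower. At 27h against 6h 3 rose (Pim2, Bcl2, Bcl2l2) and 4 fell (Bcl2l1, Cflar, Pim1, Pim3), where 34.1% of all genes were called, 15.9% higher and 18.2% lower. In dbko 2 rose at 6h (Pim2, Bcl2l1) and 3 fell (Pim1, Mcl1, Bcl2), where 39.6% of all genes were called, 19.3% higher and 20.3% lower. In cko 2 rose (Pim2, Bcl2l2) and 3 fell (Pim1, Mcl1, Bcl2), where 41.9% of all genes were called, 21.8% higher and 20.1% lower. Since 34.1 to 47.6% of all genes were called, these counts are not read as particular to the 9.

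Between genotypes the calls ran towards lower levels in the knockouts. At 6h 6 of 9 were lower in dbko than in wt and 0 higher (all except Mcl1, Bcl2 and Pim2), where 26.7% of all genes were called, 11.5% lower and 15.2% higher, with a median of -0.94 over the 9 and 0.05 over all. At 6h 4 of 9 were lower in cko than in wt and 0 higher (Bcl2l1, Bcl2a1b, Cflar, Pim1), where 3.54% of all genes were called, 1.96% lower and 1.58% higher, with medians of -0.46 and 0.02. At 0h 5 were lower in dbko than in wt (Bcl2a1b, Cflar, Bcl2, Pim1, Pim3) and 1 was higher (Mcl1), where 11.7% of all genes were called, 4.55% lower and 7.1% higher, with medians of -0.69 and 0.01. Comparisons at 1 time share the wt libraries of that time.

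In cko against wt at 0h edgeR called 0 of 9, where 1.5% of all genes were called, 0.918% higher and 0.578% lower. At an unadjusted p under 0.05 it gave 2 (Bcl2a1b and Cflar), DESeq2 called 0, and 4 were called when the compared groups were fitted alone. Between dbko and cko 3 were lower at 0h (Bcl2a1b, Bcl2, Pim3) and 1 higher (Mcl1), where 9.03% of all genes were called, 2.39% lower and 6.63% higher. At 6h 1 was higher in dbko than in cko (Bcl2l1) and 0 lower, where 13.4% of all genes were called, 8.77% higher and 4.66% lower. Without dbko 0h replicate 2 Cflar was also lower at 0h (-0.62, adjusted p = 0.0019), and without dbko 6h replicate 2 Pim1 (-1.20, adjusted p = 0.00024) and Pim2 (-1.47, adjusted p = 1.79e-05) were also lower at 6h. With no filter on low counts Pim1 and Pim2 also passed as lower in dbko than in cko at both times (adjusted p = 4.18e-05 and 0.0158 at 0h, 0.0027 and 0.0319 at 6h). Without both dbko libraries of replicate 1 Pim1 passed at 0h (0.00948) and Bcl2 at 6h (0.0206), both as lower.

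Of the 6h responses, that of Bcl2l1 was smaller in dbko than in wt, 1 of 9, where 13.8% of all genes were called, 6.9% higher and 6.94% lower. It was also smaller in cko than in wt, again 1 of 9, where 1.7% of all genes were called, 0.554% higher and 1.15% lower. Between dbko and cko 0 responses differed, where 0.934% of all genes were called, 0.586% higher and 0.348% lower. There the unadjusted p was under 0.05 for 4 (Bcl2l1, Mcl1, Bcl2l2, Bcl2a1b), and DESeq2 called 1 (Mcl1).

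**Figure D4:**
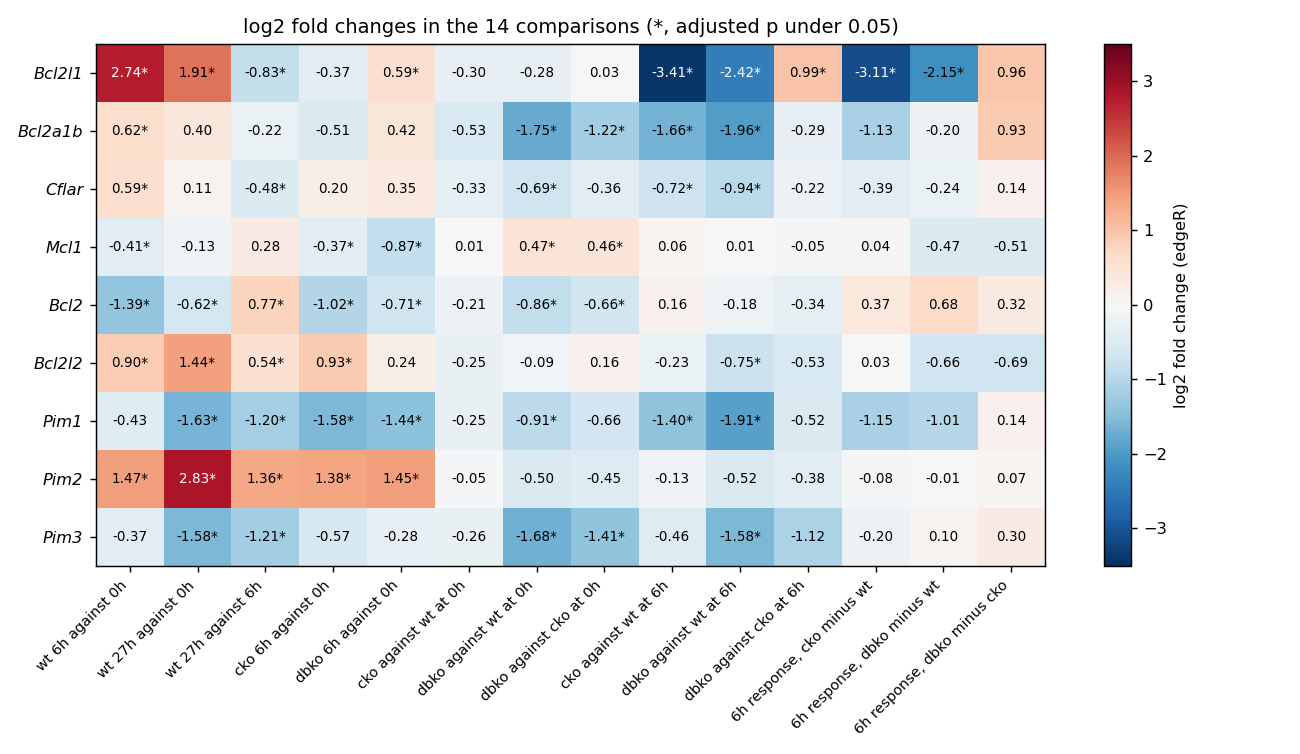
Log2 fold changes (colour and figures; red higher, blue lower in the first-named group) of the 9 genes in the 14 comparisons, with an asterisk at adjusted p under 0.05. Bcl2l1 has the largest values between genotypes, -2.42 for dbko and -3.41 for cko relative to wt at 6h, and none of the 9 is called higher in either knockout at 6h than in wt.

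Among other genes of these pathways, changes went in both directions. In wt at 6h 3 of 8 tested BH3-only and effector genes rose and 3 fell (median -0.05), among them Pmaip1, which encodes the MCL1 antagonist NOXA (-2.53 ± 0.18, adjusted p = 7.89e-07), Bcl2l11, which encodes BIM (1.40 ± 0.20, adjusted p = 0.000137), and the effector Bax (0.88 ± 0.15, adjusted p = 0.000531). Of 5 tested genes that act on MCL1 stability 2 rose, the deubiquitinase gene Usp9x among them (1.01), and 2 fell, the ubiquitin ligase subunit gene Fbxw7 among them (-0.83), with a list median of -0.18. Of 16 genes upstream of or targeted by PIM kinases 5 rose, with Stat5a, a STAT factor of cytokine receptors, at 1.68 and the translation repressor gene Eif4ebp1 at 1.39, and 2 fell, with the cytokine signal inhibitor Socs3 at -2.39 (median 0.16). Of 14 other survival genes 1 rose, the TRAF adaptor gene Traf1 (1.29), and 6 fell (median -0.47). Of 15 genes on a death receptor and caspase list 1 rose and 3 fell (median -0.05). This list also holds genes of the mitochondrial arm, such as Casp9 and Apaf1, so its counts are not those of the Cflar arm alone. Of 14 genes of BAFF signalling 5 rose and 2 fell, with Tnfrsf13b, which encodes the BAFF receptor TACI, at -0.98 (median 0.10). Over all genes 46.2% were called there, 22.6% higher and 23.5% lower, with a median of 0.00. The list counts are thus not read as particular to these pathways. The calls of the genes named here held with any 1 library left out.

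In dbko against wt at 6h, 9 of 15 genes on the death receptor and caspase list were higher, such as Casp9 (0.56) and Ripk1 (0.52). On that list 2 were lower, with the death receptor gene Fas at -1.97 ± 0.27 (adjusted p = 0.000379). The list's median was 0.52, against 0.05 over all genes. Of 14 other survival genes 4 were lower, with Traf1 at -2.37 ± 0.14 (adjusted p = 5.99e-07) and the inhibitor of apoptosis genes Birc3 at -0.98 and Birc2 at -0.89, and 3 higher (median -0.06). Of the 16 PIM pathway genes 6 were lower, with Stat5a at -1.16 and Myc at -1.56, and 1 higher (median -0.27). Of the 14 genes of BAFF signalling 5 were lower, with the NF-kB subunit gene Nfkb2 at -1.49, and 1 higher (median -0.33). This list holds Rel and Relb, the genes knocked out in dbko, whose lower levels there follow from the genotype. Of the 8 BH3-only and effector genes 1 was lower (Pmaip1, -1.06) and 1 higher, and of the 5 genes of MCL1 stability 2 were lower and 0 higher. Each of the named calls held with any 1 library left out, Myc ranging from -2.36 to -1.05, while those of Casp9, Ripk1, Pmaip1 and Myc ended with the compared groups alone. These counts stand beside 26.7% of all genes called in dbko against wt, and those of cko against wt at 6h beside 3.54%. In cko the lists gave 2 lower and 0 higher among other survival genes, and 1 and 1 on the death receptor and caspase list. They gave 2 and 1 in the PIM pathway and 2 and 0 in BAFF signalling, a list that holds Rel, the gene knocked out in cko. Among BH3-only and effector genes they gave 1 and 0, and in MCL1 stability 0 and 0. Of the lower PIM pathway genes in cko, Stat5a stood at -1.10 (adjusted p = 0.00428), a call that ended without cko 6h replicate 2. Macrophage markers were higher for 9 of 9 genes and erythroid markers for 8 of 9 in dbko at 6h, and their part in these list counts was not tested.

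The genes whose log2(CPM + 1) ran most alike with each member over the 14 libraries were found among 8664 genes with a mean of at least 8 CPM. For Pim1 these were Myc (Pearson's r = 0.963), the NF-kB inhibitor gene Nfkbia (0.948) and Grasp (0.945). For Pim2 they were Gpi1 (0.991), Cope (0.981) and Pkm (0.981), 2 of them genes of glycolysis. For Bcl2l1 they were Psme2 (0.898), Cdk6 (0.881) and Pgs1 (0.877). The closest was Swap70 (0.968) for Cflar, Sept6 (0.967) for Bcl2, Isg20 (0.965) for Mcl1, Abhd18 (0.965) for Bcl2l2, Erf (0.949) for Pim3 and Tmem173 (0.922) for Bcl2a1b. The 14 points fall into 7 groups and share culture time and genotype, and the values are a description with no test.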

How the data were processed

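RNA of 14 libraries in 7 groups was sequenced from poly-dT primed cDNA, per the labels' protocols. The authors deposited raw read counts by Ensembl gene ID in 1 table per library, with no pooling. CASAVA 1.8.2 is named in the submitters' processing notes. Not given in the sources used here are the aligner, counting tool, build, annotation and strand setting. The last lines of a table tally reads outside genes and were left out of library sizes and tests. They hold 5.21 to 11.46% of the reads as no feature, 38.77 to 49.85% as not unique and 0.41 to 0.49% as ambiguous. Symbols, positions and lengths come from GENCODE mouse release 21 on GRCm38, which may differ from the authors' build (37693 of 39179 IDs matched, with 99.56% of gene counts). Promoter windows come from RefSeq.

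The counts of all genes were scaled by TMM and fitted in edgeR 4.0.16 (R 4.3.3, limma 3.58.1) with glmQLFit (robust), 1 mean per group over all 14 libraries and 7 residual degrees of freedom. Of the genes, 12630 passed filterByExpr, and the common biological coefficient of variation was 0.144. Two-sided p-values of glmQLFTest were adjusted over all tested genes (Benjamini-Hochberg), with calls at an adjusted p under 0.05. SEs are the log2 fold change over the root of the F statistic, and 95% intervals use its degrees of freedom. A difference of responses is the contrast of 2 differences between 6h and 0h. CPM use the same scaled library sizes, and likeness adds 1 to CPM before log2. The fit was run on simulated counts with known changes, drawn with 1 dispersion for all groups. That run thus does not cover the wider spread between the dbko replicates. Tables and figures used Python 3.11.15, NumPy 2.4.6, pandas 2.3.3 and Matplotlib 3.10.9.

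The 9 genes, the pathway lists and the marker lists were chosen with earlier results of these data known. All 9 are named in every comparison, with up to 3 called genes of smallest adjusted p per pathway list and comparison and the 3 genes most alike to each member. Of 156 listed genes 152 matched, and Bcl2a1a, Bcl2a1d, Ighd and Ahsp are not analysed here. Alternatives were DESeq2 size factors, no filter on low counts, the replicate number as a block, the compared groups alone, DESeq2 1.42.0, the 2 matched Bcl2a1 copies summed, the longest transcript as length, and leaving out each library or both dbko libraries of replicate 1. Per the labels, all libraries of replicate 1 share sequencing lane 7 and those of replicate 2 lane 8, so the replicate block is also a lane block. Of 21 pairs of groups, 5 had same-numbered deviations correlated over 0.1 (range -0.245 to 0.483).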

Additional observations from a re-analysis of the deposited data

Results flagged for a closer look

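Bcl2l1 had a 6h response that differed between genotypes by a test of the difference itself, the interaction of genotype and time in the edgeR fit. The response of dbko minus that of wt was -2.15 (0.59 ± 0.18 in dbko and 2.74 ± 0.18 in wt), and the response of cko minus that of wt was -3.11 (-0.37 ± 0.19 in cko and 2.74 ± 0.18 in wt). Both differences rest on the same wt libraries. With any 1 library left out they ranged from -2.35 to -1.97 and from -3.38 to -2.90.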

How the results depend on the processing

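Of 126 tests of the 9 genes 53 were called, 22 of them under every alternative and 31 lost under at least 1, and 36 uncalled ones were called under at least 1. The 22 include the Bcl2l1 rises in wt, its lower level in dbko and cko at 6h and both differences of its response, and the lower Bcl2a1b in both at 6h. With the replicate block, which is also the sequencing lane, 56 were called, all 53 among them, and it changed no other call than those 3. With DESeq2 size factors 53 were called, with no filter 64, with DESeq2 58 and with the compared groups alone 50. The Pim2 difference of the dbko and wt responses (-0.01) ranged from -1.10 to 0.60 with libraries left out, the ends being without dbko 6h replicate 2 and replicate 1. That of dbko and cko (0.07) likewise ranged from -1.02 (adjusted p = 0.00565) to 0.68. The cause was not tested.

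Counts of the 9 genes called moved as follows. Fitted with the compared groups alone they were, at 0h, 2 for dbko against wt, 1 for dbko against cko and 4 for cko against wt. At 6h they were 3 for dbko against wt and 0 for dbko against cko. They were 1 for dbko at 6h against 0h, and 4 for the response of cko minus wt. Without the filter they were 4 in dbko against cko at 6h, 2 for the response of cko minus wt and 3 for that of dbko minus wt. With the replicate block they were 2 in dbko against cko at 6h and 2 for the response of dbko minus wt. With DESeq2 they were 2 in dbko against cko at 6h, and 2, 3 and 1 for the responses of cko minus wt, dbko minus wt and dbko minus cko. Leaving out libraries gave 4 to 5 in wt at 6h against 0h, 2 to 4 in wt at 27h against 6h, 3 to 6 in cko and 3 to 4 in dbko at 6h against 0h, 2 to 6 in dbko against wt and 0 to 5 against cko at 0h, 2 to 3 in cko against wt and 0 to 4 in dbko against cko at 6h, and 1 to 4 and 0 to 2 for the responses of dbko minus wt and dbko minus cko.

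Counts over all genes moved with the groups in the fit, the filter, the tool and single libraries. With the compared groups alone they were 2714 in place of 189 in cko against wt at 0h, 393 in place of 1472 and 477 in place of 1140 in dbko against wt and cko at 0h, 847 in place of 3370 and 221 in place of 1697 against them at 6h, 1350 in place of 5004 in dbko at 6h against 0h, 7601 in place of 4309 in wt at 27h against 6h, and 1249, 628 and 1 in place of 215, 1749 and 118 for the responses of cko minus wt, dbko minus wt and dbko minus cko. Without the filter they were 648, 2361, 2124, 1030, 654 and 576 in place of 189, 1472, 1140, 447, 215 and 118, and with DESeq2 387, 510 and 256 in place of 189, 215 and 118. Leaving out 1 library gave 2143 to 2395 in wt at 27h against 6h, 39 to 49 in cko against wt at 0h, 455 to 3053 and 227 to 2979 in dbko against wt and cko at 0h, 70 to 448 in cko against wt at 6h, 1327 to 4162 and 567 to 2952 in dbko against wt and cko at 6h, and 9 to 426, 597 to 2652 and 12 to 687 for the responses of cko minus wt, dbko minus wt and dbko minus cko. In the other 4 comparisons the counts stayed within 1.5 times. The lowest of these came without a wt or cko library, and the highest, where above the full fit by more than 1.5 times, without cko 6h replicate 1 for cko minus wt and without replicate 2 of dbko at 0h or 6h elsewhere. With DESeq2 size factors the share of higher calls for the response of cko minus wt was 22.0% in place of 32.6%. Depth limits Bcl2a1b most, at 24 to 160 counts per library.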
